A study of Mus musculus with 3 samples.

Results

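The genes described here move amino acids into and within adipocytes or take the first steps in breaking down branched-chain amino acids (BCAAs). They are 9 of the 25154 genes found in the 3 deposited snRNA-seq tables of mouse brown adipose tissue (BAT), and were chosen by name. 5 of them, Slc7a10, Slc1a3, Slc1a5, Slc7a5 and Slc36a2, encode carriers of the plasma membrane. Slc25a44 encodes the carrier that brings BCAAs into mitochondria, Bcat2 the mitochondrial transaminase that acts on them first, and Bckdha and Bckdhb the alpha and beta subunits of the E1 part of the branched-chain ketoacid dehydrogenase. All 9 had a column in each of the 3 tables, but Slc7a5 was nearly undetected, which left 8 for the comparisons.

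BCAAs (leucine, isoleucine and valine) enter a cell through transporters in its plasma membrane and are then taken up by mitochondria. There the transaminase passes their amino group to a keto acid, giving glutamate, and the dehydrogenase complex commits the remaining keto acid to oxidation. The complex consists of E1, which Bckdha and Bckdhb build, the core E2 (Dbt) and the shared E3 (Dld), and it is switched off by the kinase Bckdk and on by the phosphatase Ppm1k. Brown adipocytes are known to burn BCAAs during thermogenesis, and white adipocytes also carry out much of their catabolism. Among the plasma membrane carriers, Slc1a3 takes up glutamate and aspartate, Slc1a5 exchanges glutamine and other neutral amino acids, Slc36a2 carries small neutral amino acids together with protons, Slc7a10 carries small neutral amino acids such as serine, and Slc7a5 exchanges large neutral ones, BCAAs included.

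The study asked how endothelial cells (ECs) communicate with brown adipocytes (BAs), and prepared sorted nuclei from the part of digested interscapular BAT that floats, where lipid-laden adipocytes gather with fragments of vessels. The 3 libraries came from adult mice labelled as wild-type C57Bl6 (C57BL/6J in the study) and were labelled as untreated, sham-operated and denervated. The labels call all 3 wild-type, while a run name in the header of the denervated table holds the letters KO, which no source used here explains. The study states that all its mice were male. It describes pooled mice for the untreated and the denervated library, and for the latter nerves cut on one side, tamoxifen given and tissue taken on the third day. How the sham-operated library was made is not given in the sources used here. With 1 library per condition no difference between conditions has a replicate check, so no p-value is given, and a library cannot be told apart from its condition. Each level is a count of UMIs (unique molecular identifiers) per 1000000 UMIs of a class of nuclei (CPM), given in square brackets with its exact 95% Poisson interval. Shares of nuclei carry exact binomial (Clopper-Pearson) intervals. Intervals cover counting error only, and levels are those of nuclear RNA.

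On GRCm38 (GENCODE vM21), Slc7a10 lies at chr7:35186385-35201114 on the plus strand, Slc1a5 at chr7:16781340-16798274 on the plus strand and Bcat2 at chr7:45570153-45589711 on the plus strand. Bckdha shares that chromosome, at chr7:25629946-25658981 on the minus strand. Slc1a3 lies at chr15:8634124-8710764, Slc7a5 at chr8:121881150-121907694, Slc36a2 at chr11:55158470-55185077 and Slc25a44 at chr3:88410498-88425139, all on the minus strand, and Bckdhb at chr9:83925145-84124240 on the plus strand. All 9 are annotated as protein-coding. Genes on the opposite strand overlap Slc7a10 (Lrp3, 261 UMIs), Bckdha (B3gnt8, 60 UMIs), Bcat2 (0610005C13Rik, 28 UMIs), Bckdhb (Gm46124, 3 UMIs) and Slc7a5 (Gm20388, 13621 UMIs), and the use of strand in counting is not given in the sources used here.

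The proximal promoters of Slc7a10, Bcat2 and Bckdhb are shown because the RefSeq start of these 3 genes lay within 10 bases of the GENCODE start. Of the 9 genes, 5 had an entry in the RefSeq table. Each promoter is the 250 bases before the RefSeq start on GRCm38.p6, plus strand, at chr7:35186135-35186384, chr7:45569903-45570152 and chr9:83924887-83925136. Capitals mark matches to GGGCGG (a GC box) and to AGGTCA (the half-site of many nuclear receptors), searched on both strands.
Slc7a10: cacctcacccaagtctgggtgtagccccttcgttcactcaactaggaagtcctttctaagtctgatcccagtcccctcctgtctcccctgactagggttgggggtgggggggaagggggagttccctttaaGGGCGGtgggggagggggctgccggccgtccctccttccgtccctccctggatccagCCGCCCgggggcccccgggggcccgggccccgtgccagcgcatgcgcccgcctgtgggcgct
Bcat2: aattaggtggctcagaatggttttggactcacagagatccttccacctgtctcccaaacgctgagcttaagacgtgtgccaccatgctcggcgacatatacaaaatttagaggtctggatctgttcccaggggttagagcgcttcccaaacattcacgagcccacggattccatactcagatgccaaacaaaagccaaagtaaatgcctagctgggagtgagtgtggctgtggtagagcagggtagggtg
Bckdhb: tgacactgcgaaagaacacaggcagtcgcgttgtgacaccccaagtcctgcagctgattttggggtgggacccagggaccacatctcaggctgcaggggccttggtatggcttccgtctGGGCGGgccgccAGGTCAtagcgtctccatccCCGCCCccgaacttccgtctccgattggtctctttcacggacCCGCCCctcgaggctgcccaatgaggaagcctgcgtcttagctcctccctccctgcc
The Slc7a10 window held 2 GC boxes and no half-site, the Bckdhb window 3 GC boxes and 1 half-site, and the Bcat2 window neither motif. Over 32851 RefSeq promoter windows of the same length, 32.7% held a GC box and 14% a half-site. Neither motif was present in the windows of all 3 genes.

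Nuclei were clustered in each library without the 9 genes, without the other genes of their pathways and without mitochondrially encoded genes, so that none of them placed a nucleus in a class. Clusters were then named from marker lists as brown adipocyte-like (BA), white adipocyte-like (WA), endothelial-like (EC) and pericyte-like (PC). The BA class held 4589 nuclei in the untreated, 3404 in the sham-operated and 4913 in the denervated library, and the WA class 132, 989 and 944. The summed level of the white list, which holds Retn, Nnat and Lep but not Slc7a10, was 2310, 2227 and 1907 CPM in WA nuclei and 523, 515 and 767 CPM in BA nuclei. The brown list ran the other way, with 7106, 7966 and 8023 CPM in BA nuclei and 1867, 2262 and 1391 CPM in WA nuclei. Immune and stress genes (Cxcl1, Ptx3, Casp4 and Irf1) were among the 10 leading genes of the denervated WA cluster. The median depth was 1823, 1388 and 893 UMIs in BA nuclei, 1308, 1152 and 814 in WA nuclei, 614, 486 and 384 in EC nuclei and 760, 749 and 390 in PC nuclei. Between 251 and 278 cell barcodes were shared by each pair of libraries, and 5 by all 3.

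Slc7a10 was the gene that most clearly separated the adipocyte classes. In WA nuclei its level was 575 CPM [472 to 694] in the untreated, 553 CPM [514 to 595] in the sham-operated and 699 CPM [644 to 758] in the denervated library, from 109, 731 and 585 UMIs. In BA nuclei it was 2.74 CPM [1.74 to 4.12], 20.7 CPM [16.8 to 25.2] and 14.8 CPM [11.6 to 18.6]. WA nuclei were higher in every library, by log2 ratios of 7.71 [7.05 to 8.43], 4.74 [4.43 to 5.06] and 5.57 [5.21 to 5.94]. The study itself used Slc7a10 to recognise white adipocytes; here it took no part in clustering or naming, yet it was among the 10 leading genes of the WA cluster in all 3 libraries. At least 1 Slc7a10 UMI was found in 47.0%, 41.4% and 37.4% of WA nuclei, in 0.479%, 2.17% and 1.22% of BA nuclei, and in 0.142%, 0.349% and 0.739% of EC nuclei. With each nucleus thinned to 800 UMIs, which left out 19, 206 and 464 shallower WA nuclei, 366, 524 and 2006 BA nuclei and 2966, 3791 and 2126 EC nuclei, the shares were 32.7%, 30.9% and 37.9% in WA nuclei, 0.308%, 1.11% and 0.722% in BA nuclei, and 0.158%, 0.377% and 0.643% in EC nuclei. In the untreated and denervated libraries the BA level could not be separated from that of ECs, at 2.81 CPM [1.21 to 5.54] and 18.2 CPM [11.6 to 27.3]. The share of UMIs estimated to be free RNA was 5.9% and 2.31% in these BA nuclei, and 61.5% and 121.4% in these ECs. The EC level is therefore no measure of free RNA in BA nuclei. Whether the BA level is expression of the gene in BAs was not tested, and it is not read as such. In the sham-operated library ECs had 6.26 CPM [3.65 to 10.03], below BA nuclei. In PC nuclei Slc7a10 had 0 UMIs of 526527 in the untreated library, with an upper limit of 7.01 CPM, and 6 UMIs in each of the others.

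**Figure D1:**
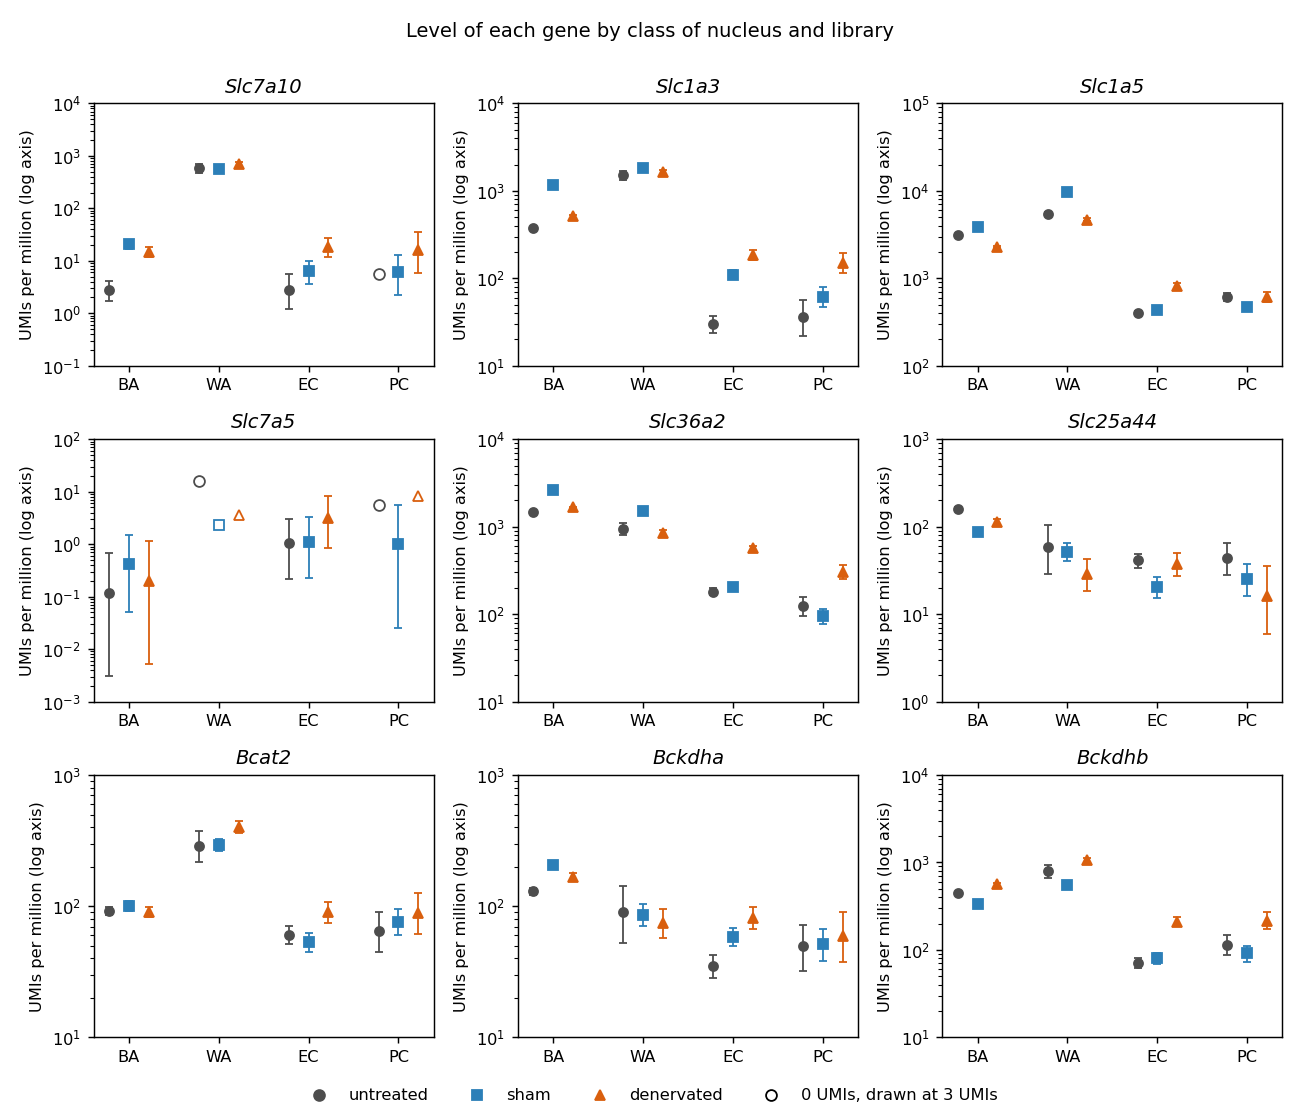
CPM (log axes) of the 9 genes in brown adipocyte-like (BA), white adipocyte-like (WA), endothelial-like (EC) and pericyte-like (PC) nuclei of the 3 libraries; bars are exact 95% Poisson intervals, and open symbols stand for 0 UMIs, drawn at the level of 3 UMIs. Slc7a10 was at 553 to 699 CPM in WA nuclei and at 20.7 CPM or less in every other class, while Slc36a2, Slc25a44 and Bckdha had their highest point in BA nuclei of each library.

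Slc1a3, the glutamate and aspartate transporter, was highest in WA nuclei, next in BA nuclei and lower in both vessel classes. Its WA level was 1514 CPM [1344 to 1699], 1815 CPM [1743 to 1889] and 1654 CPM [1568 to 1744] in the untreated, sham-operated and denervated library. The BA level varied much more between libraries, at 372 CPM [359 to 385], 1159 CPM [1129 to 1190] and 510 CPM [490 to 530]. As a result the WA over BA log2 ratio was 2.02 [1.85 to 2.20] in the untreated and 1.70 [1.60 to 1.79] in the denervated library, but 0.65 [0.58 to 0.72] in the sham-operated one. After thinning, 55.8%, 67.3% and 55.6% of WA nuclei and 22.3%, 48.9% and 27.7% of BA nuclei had a UMI, against 1.896%, 10.3% and 18.7% of EC nuclei and 3.18%, 2.73% and 20.8% of PC nuclei. The EC levels were 29.9 CPM, 110 CPM and 185 CPM and the PC levels 36.1 CPM, 61.2 CPM and 151 CPM. The gap was least clear in the denervated library, where only 72 PC nuclei could be thinned, with an interval of 12.2% to 32.0% that includes the 27.7% of BA nuclei, and where alternatives brought the log2 ratio over BA nuclei as close to 0 as -0.58 for ECs and -0.27 for PCs.

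Slc1a5, the exchanger for glutamine and other neutral amino acids, was also highest in WA nuclei, at 5438 CPM [5111 to 5780], 9712 CPM [9545 to 9882] and 4696 CPM [4551 to 4846]. In BA nuclei it was 3117 CPM [3079 to 3155], 3826 CPM [3770 to 3882] and 2285 CPM [2243 to 2327]. The WA over BA log2 ratios were 0.80 [0.71 to 0.89], 1.34 [1.31 to 1.38] and 1.04 [0.99 to 1.09]. The transcript was found in 94.8%, 94.0% and 78.1% of BA nuclei, against 16.8%, 11.3% and 20.4% of EC nuclei, and after thinning in 88.8%, 90.7% and 80.7% of BA nuclei, against 22.0%, 23.0% and 56.6% of EC nuclei. PC nuclei had 608, 474 and 614 CPM and EC nuclei 400, 428 and 824 CPM; the intervals of these 2 classes overlapped in the sham-operated library only. In the denervated library the EC level was 1224 CPM in the EC cluster of 1433 nuclei and 299.7 CPM in that of 1004. In the untreated library it was 773 CPM [706 to 846] in the EC cluster of 1398 nuclei and 272 CPM [248 to 297] in that of 2220. PCs of the untreated library had an interval of 543 to 678 CPM. The order of ECs and PCs thus differed between EC clusters in both libraries.

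Slc36a2, the proton-coupled carrier of small neutral amino acids, had the opposite order between adipocytes. BA nuclei had 1483 CPM [1457 to 1509], 2627 CPM [2581 to 2673] and 1658 CPM [1623 to 1695], and WA nuclei 939 CPM [806 to 1087], 1512 CPM [1446 to 1580] and 848 CPM [786 to 912]. The WA over BA log2 ratios of -0.66 [-0.88 to -0.45], -0.80 [-0.87 to -0.73] and -0.97 [-1.08 to -0.86] all lay below 0 and short of 2-fold. ECs followed with 180, 205 and 565 CPM and PCs with 124, 94.3 and 303 CPM. By these class levels both vessel classes lay below both adipocyte classes in the 3 libraries. After thinning, 11.0% and 12.7% of EC nuclei and 49.6% and 62.2% of WA nuclei had a UMI in the untreated and sham-operated library. In the denervated library ECs were not below WA nuclei, at 44.7% [39.1 to 50.4] against 40.8% [36.4 to 45.4]. This EC value came from only 311 of the 2437 EC nuclei, those with at least 800 UMIs. The share of UMIs estimated to be free RNA was 121.4% in denervated ECs, more than a share can be. The part of free RNA in this EC value was not tested. ECs and PCs are not ranked by Slc36a2, since the EC level differed between EC clusters. In the untreated library it was 109 CPM [93.9 to 125] in the largest cluster, where PCs had an interval of 95.3 to 157 CPM. In the denervated library it was 172 CPM [139 to 210] in the deeper EC cluster, where PCs had 249 to 364 CPM. The denervated EC cluster of 1433 nuclei had 865 CPM [798 to 936], which overlapped the interval of WA nuclei. The adipocyte-rich layer sampled here thus held transporters of both orders, Slc7a10, Slc1a3 and Slc1a5 on the white side and Slc36a2 on the brown side.

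Slc7a5, the exchanger that brings BCAAs into many cells, gave 4, 6 and 5 UMIs in the 4 classes together, and 7, 10 and 12 UMIs over all barcodes of the 3 tables. No WA nucleus had a UMI, with upper limits of 19.5, 2.79 and 4.41 CPM. ECs, a cell type known for this transporter in brain, had 1.05, 1.11 and 3.17 CPM. Gm20388, which overlaps it on the opposite strand, had 13621 UMIs over the same tables, and whether reads of Slc7a5 were assigned to that gene cannot be told apart from the counts.

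Slc25a44, the mitochondrial BCAA carrier, was highest in BA nuclei, at 161 CPM [153 to 170], 85.9 CPM [77.8 to 94.7] and 113 CPM [104 to 123]. WA nuclei had 58.0 CPM [29.0 to 104], 51.5 CPM [40.0 to 65.3] and 28.7 CPM [18.4 to 42.7], from 11, 68 and 24 UMIs. The WA over BA log2 ratios were -1.47 [-2.48 to -0.63], -0.74 [-1.13 to -0.37] and -1.98 [-2.63 to -1.39]. WA, EC and PC nuclei did not separate beyond their intervals in the untreated library, where ECs had 41.1 CPM and PCs 43.7 CPM. The carrier that delivers BCAAs to mitochondria was therefore on the brown side in every library, below 2-fold in the sham-operated one.

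Bcat2, the transaminase that acts next, was on the white side. WA nuclei had 290 CPM [219 to 378], 292 CPM [264 to 323] and 404 CPM [362 to 450], and BA nuclei 92.3 CPM [85.9 to 99.03], 100 CPM [91.3 to 110] and 90.5 CPM [82.3 to 99.3]. The WA over BA log2 ratios were 1.65 [1.23 to 2.05], 1.55 [1.35 to 1.74] and 2.16 [1.95 to 2.37]. Outside WA nuclei its level differed less: ECs had 60.5, 53.4 and 90.3 CPM and PCs 64.6, 76.3 and 89.2 CPM. Bcat2 was the gene whose BA level varied least between libraries, and BA, EC and PC nuclei of the denervated library could not be separated by it.

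The subunits of E1 split between the classes. Bckdha was higher in BA nuclei, at 130 CPM [123 to 138], 207 CPM [194 to 221] and 168 CPM [156 to 179], than in WA nuclei, at 89.7 CPM [52.2 to 144], 86.3 CPM [71.2 to 104] and 74.1 CPM [56.8 to 95]. Bckdhb was higher in WA nuclei, at 791 CPM [670 to 928], 559 CPM [520 to 601] and 1058 CPM [989 to 1130], than in BA nuclei, at 451 CPM [437 to 466], 338 CPM [322 to 355] and 563 CPM [542 to 584]. The WA over BA log2 ratios were -0.54 [-1.32 to 0.15], -1.26 [-1.56 to -0.98] and -1.18 [-1.57 to -0.80] for Bckdha, and 0.81 [0.57 to 1.05], 0.73 [0.60 to 0.85] and 0.91 [0.80 to 1.02] for Bckdhb. In each library the intervals of the 2 subunits did not overlap, although that of Bckdha in the untreated library, from 17 UMIs in WA nuclei, included 0. The genes differ in length, 29.0 kb for Bckdha and 199 kb for Bckdhb, so their levels were not set against each other.

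**Figure D2:**
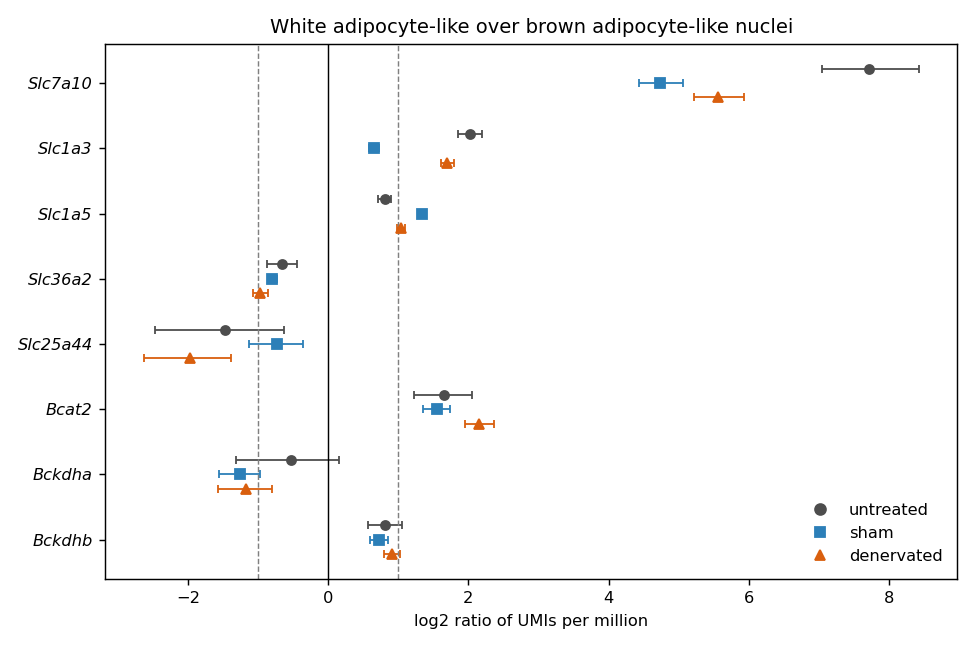
Log2 ratio of CPM in white adipocyte-like over brown adipocyte-like nuclei for the 8 genes with enough UMIs, by library; bars are exact 95% intervals for counting error, and dashed lines mark 2-fold. Slc7a10, Slc1a3, Slc1a5, Bcat2 and Bckdhb lie above 0 and Slc36a2, Slc25a44 and Bckdha below 0 in all 3 libraries, with the interval of Bckdha in the untreated library reaching 0.15.

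Counted at a 2-fold threshold over genes with at least 30 UMIs in the 2 classes, 3 of the 8 genes were higher and 1 lower in WA than in BA nuclei of the untreated library, where 10.3% of all tested genes were higher and 30.6% lower. In the sham-operated library 3 were higher and 1 lower, against 8.2% and 15.9% of all genes, and in the denervated library 4 were higher and 2 lower, against 8.93% and 25%. The 4 higher in the denervated library were Slc7a10, Slc1a3, Slc1a5 and Bcat2. The median of the 8 genes was 0.81, 0.69 and 0.97, where that of all tested genes was -0.36, -0.27 and -0.37. Tested genes with no UMI in WA nuclei count as lower and enter these medians. WA nuclei held 189608, 1320986 and 836601 UMIs in the untreated, sham-operated and denervated library, and BA nuclei 8386077, 4736128 and 4948819. The part of this difference in the WA over BA shares and medians, here and for the pathway lists, was not tested. The sign of all 24 WA over BA ratios of the 8 genes was the same under every alternative processing that could be computed for them. The count of lower genes in the sham-operated library fell from 1 to 0 when the libraries were clustered together, in which case Bckdha was at -0.84, and in the untreated library it fell from 1 to 0 with a minimum of 500 detected genes, in which case Slc25a44 was at -0.82.

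BA nuclei were also compared between libraries, where the cutting of the sympathetic nerves cannot be told apart from other differences between single libraries. Against the untreated library, the denervated one had higher Slc1a3 (log2 ratio 0.45 [0.38 to 0.53]), Bckdha (0.36 [0.23 to 0.49]), Bckdhb (0.32 [0.25 to 0.39]) and Slc36a2 (0.16 [0.12 to 0.20]), and lower Slc25a44 (-0.51 [-0.66 to -0.37]) and Slc1a5 (-0.45 [-0.48 to -0.42]). Bcat2 was at -0.03 [-0.20 to 0.14], which leaves differences of up to 0.20 on the log2 scale within counting error. Only Slc7a10 passed 2-fold, at 2.43 [1.73 to 3.17], from 23 and 73 UMIs, levels that could not be separated from those of ECs of the same libraries. Thus 1 of 8 genes was higher and 0 lower, where 6.03% of all tested genes were higher and 1.64% lower.

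Against the sham-operated library, most of these genes were lower in denervated BA nuclei. Slc1a3 had a log2 ratio of -1.19 [-1.25 to -1.12], Slc1a5 of -0.74 [-0.78 to -0.71], Slc36a2 of -0.66 [-0.70 to -0.62], Slc7a10 of -0.49 [-0.95 to -0.04] and Bckdha of -0.31 [-0.44 to -0.17]. Bckdhb, at 0.74 [0.65 to 0.83], and Slc25a44, at 0.39 [0.20 to 0.58], were higher, and Bcat2 was at -0.14 [-0.33 to 0.04]. At 2-fold 0 genes were higher and 1 lower, where 13.6% of all tested genes were higher and 8.99% lower. The lower gene was Slc1a3, and the count fell to 0 when both adipocyte classes were summed.

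The sham-operated library also differed from the untreated one, in which no operation was done. Mitochondrially encoded genes took 12.9% of its UMIs, against 6.71% in the untreated and 2.95% in the denervated library, and 6.33%, 3.14% and 1.85% in BA nuclei, and their part in the differences was not tested. Slc7a10 (2.92 [2.25 to 3.64]) and Slc1a3 (1.64 [1.58 to 1.70]) were over 2-fold higher in its BA nuclei, making 2 of 8 genes higher and 0 lower, where 8.32% of all tested genes were higher and 9.58% lower. The Slc7a10 ratio came from 98 and 23 UMIs, and 48 of the 98 lay in the sub-cluster led by immediate early genes. Its untreated BA level could not be separated from that of ECs. Slc36a2 (0.82 [0.79 to 0.86]), Bckdha (0.67 [0.54 to 0.79]) and Slc1a5 (0.30 [0.27 to 0.32]) were higher by less, Slc25a44 (-0.91 [-1.07 to -0.75]) and Bckdhb (-0.42 [-0.50 to -0.33]) were lower, and Bcat2 was at 0.12 [-0.05 to 0.28]. The denervated library is shared by both of its contrasts, so they are no independent evidence of each other. Side by side, Slc1a5 was lower in the denervated library against each of the others and Bckdhb higher, each by less than 2-fold, whereas Slc1a3, Slc36a2, Bckdha, Slc7a10 and Slc25a44 changed sign with the library used for comparison. For these 5 genes the level of the denervated BA nuclei lay between those of the untreated and the sham-operated ones. For Slc7a10 this depended on the processing: its denervated over sham-operated ratio kept its sign in 10 of 13 alternatives, over a range of -0.74 to 0.32, and was at 0.16 without the sham-operated sub-cluster led by immediate early genes. The higher Bckdhb was not particular to adipocytes. Denervated over untreated it was at 1.57 in ECs and 0.92 in PCs, and over sham-operated at 1.40 and 1.24. Slc1a5 was not lower in these classes, at 1.04 and 0.01 over untreated and 0.94 and 0.37 over sham-operated. The part of free RNA in these vessel ratios was not tested.

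Beside Slc7a10, other genes of white adipocytes differed between the BA classes. Nnat had 4.29, 16.3 and 17.2 CPM and Retn 10.1, 68.4 and 27.9 CPM in BA nuclei of the untreated, sham-operated and denervated library, while Lep had 126, 28.1 and 122 CPM. Cyp2e1 had 2.86, 35.7 and 5.46 CPM and Npr3 179, 34.4 and 341 CPM, so white genes did not share one order of libraries. The summed white list was at 523, 515 and 767 CPM in these nuclei, not higher in the sham-operated than in the untreated library. None of the 8 genes of the white list was at 0 in BA nuclei of the untreated and denervated libraries, and 1 was in the sham-operated one. The part of nuclei from white adipocytes in the BA levels of Slc7a10 was not tested.

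**Figure D3:**
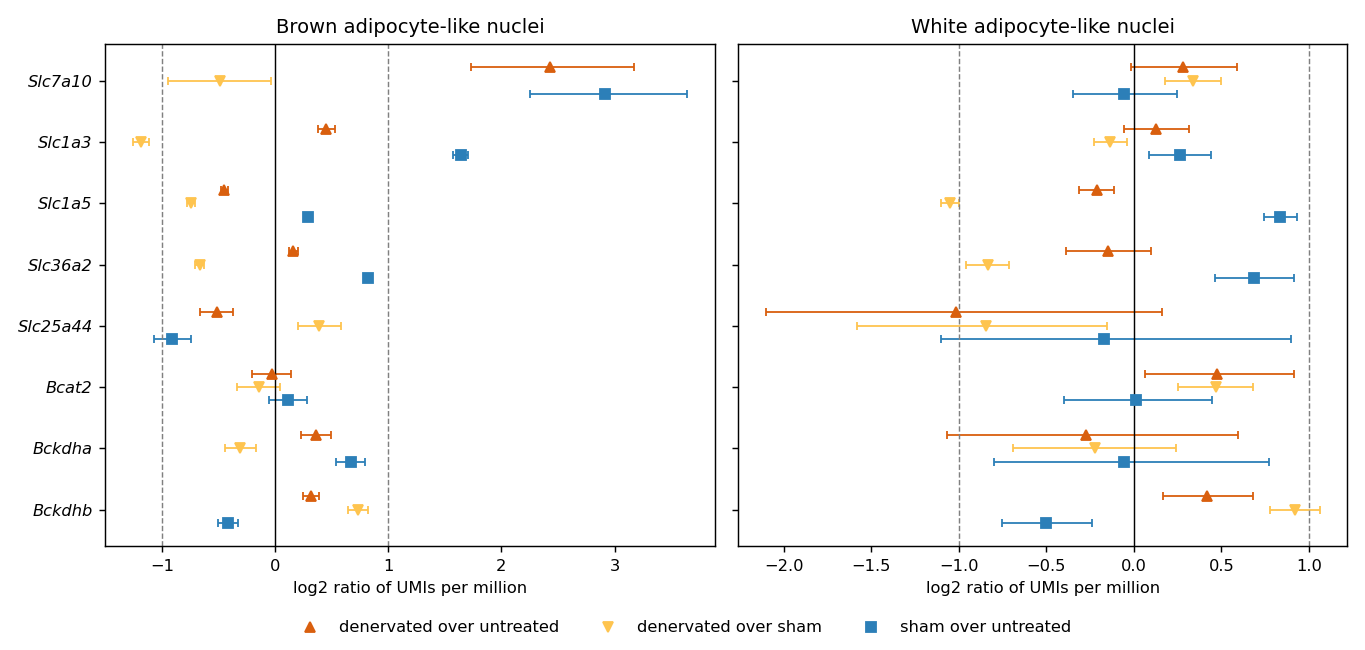
Log2 ratio of CPM between libraries in brown adipocyte-like nuclei (left) and white adipocyte-like nuclei (right) for 8 genes; bars are exact 95% intervals for counting error, dashed lines mark 2-fold, and the horizontal scales differ. In brown adipocyte-like nuclei Slc1a3 stands at 1.64 for sham-operated over untreated and at -1.19 for denervated over sham-operated, and in white adipocyte-like nuclei its 3 points lie between -0.13 and 0.26.

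In WA nuclei, Slc1a5 showed the largest difference with a narrow interval. It was lower in the denervated than in the sham-operated library by a log2 ratio of -1.05 [-1.10 to -0.997], and against the untreated library by -0.21 [-0.31 to -0.11]. Bckdhb was higher in the denervated library against both, by 0.92 [0.78 to 1.06] and 0.42 [0.17 to 0.68], as was Bcat2, by 0.47 [0.25 to 0.68] and 0.48 [0.06 to 0.92]. Slc36a2 was at -0.83 [-0.96 to -0.71] against the sham-operated and at -0.15 [-0.39 to 0.10] against the untreated library. Slc25a44, from 24 UMIs in the denervated library, was at -0.84 [-1.58 to -0.15] and -1.02 [-2.10 to 0.16]. The Slc7a10 level of WA nuclei was at 0.34 [0.18 to 0.50] and 0.28 [-0.01 to 0.59]. Slc1a3, which differed over 2-fold between BA classes, was at -0.13 [-0.23 to -0.04] and 0.13 [-0.06 to 0.32] in WA nuclei. The summed adipocyte list was at 8929, 15220 and 7019 CPM in WA nuclei of the untreated, sham-operated and denervated library. Slc1a5 and Slc36a2 had the same order of libraries. The white list differed less, at 2310, 2227 and 1907 CPM. The part of such a wider difference between WA classes in the ratios of Slc1a5 and Slc36a2 was not tested.

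Within BA nuclei, the level of several of these genes followed sub-clusters. In the sham-operated library the 813 nuclei of a sub-cluster led by immediate early genes (Jun, Jund, Fos and Egr1) had 49.98 CPM [36.9 to 66.3] of Slc7a10, and the other 2 sub-clusters 12.1 and 18.7 CPM. The same 813 nuclei had 5039 CPM [4898 to 5183] of Slc1a5, against 3509 and 3560 CPM, and 52.1 CPM [38.6 to 68.6] of Slc25a44, against 96.4 and 85.7 CPM. This sub-cluster, with 48 of the 98 Slc7a10 UMIs of the class, had 2 white markers where 3 were needed for a white-like name, and its white score of 0.498 was above its brown score of 0.277. Without these nuclei the Slc7a10 level of sham-operated BA nuclei gave a WA over BA log2 ratio of 5.38. In the denervated library 39 nuclei led by interferon-induced genes (Rsad2, Iigp1 and Ifit1) had 290 CPM [150 to 506] of Slc7a10, from 12 UMIs, against 9.87 to 24.9 CPM in the others. These 39 nuclei were named brown-like only because they did not meet the white rule. Their brown score was 0.095 and their white score -0.043, and the other brown-like sub-clusters of that library had brown scores of 0.281 to 0.748. The 1173 denervated nuclei led by heat shock genes (Hspa1a, Hspa1b and Hsp90aa1) had 64.1 CPM [47.4 to 84.8] of Slc25a44, 1975 CPM [1877 to 2077] of Slc1a5 and 628 CPM [573 to 687] of Bckdhb, whereas the 1826 nuclei of the largest sub-cluster had 139 CPM [125 to 154], 2394 CPM [2335 to 2453] and 531 CPM [503 to 560]. In the untreated library the 539 nuclei led by heat shock genes had 79.8 CPM [59.2 to 105] of Bckdha and 63.9 CPM [45.6 to 86.9] of Bcat2, against 134 CPM [126 to 144] and 92.5 CPM [85.3 to 100] in the largest sub-cluster, and only the Bckdha intervals did not overlap. Sub-clusters also differed in depth, with medians of 622 UMIs for the heat shock and 1406 UMIs for the largest sub-cluster of the denervated library, and the part of depth in these differences was not tested.

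**Figure D4:**
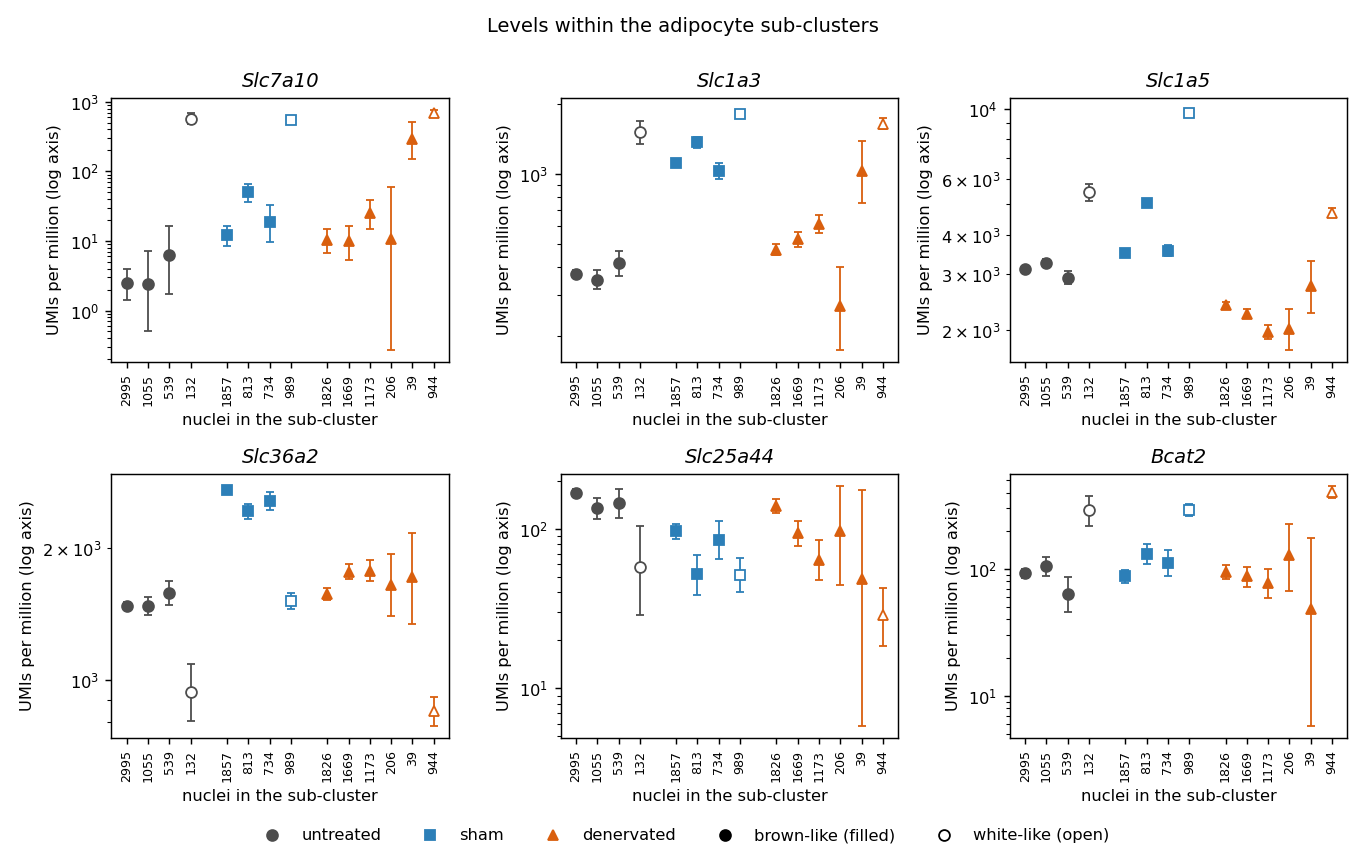
CPM (log axes) of 6 genes in each adipocyte sub-cluster, named on the horizontal axis by its number of nuclei; filled symbols are brown adipocyte-like and open symbols white adipocyte-like, colours mark the library, and bars are exact 95% Poisson intervals. The open symbols stand highest within their library for Slc7a10, Slc1a3, Slc1a5 and Bcat2 and lowest for Slc36a2, and the 39 interferon-led nuclei reach 290 CPM of Slc7a10.

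In ECs, 6 of the 8 genes were over 2-fold lower than in BA nuclei of the untreated library, where 26.5% of all tested genes were lower. The counts were 7 of 8 against 24% in the sham-operated and 6 of 8 against 15.7% in the denervated library. Slc1a3, Slc1a5 and Slc36a2 showed the lowest EC over BA log2 ratios, at -3.64 [-3.97 to -3.33], -2.96 [-3.05 to -2.88] and -3.04 [-3.17 to -2.92] in the untreated library, and Bcat2 the smallest gap of the genes that were lower, at -0.61 [-0.86 to -0.37]. In PCs the corresponding log2 ratios over BA nuclei were -3.37 [-4.10 to -2.72] for Slc1a3, -2.36 [-2.52 to -2.20] for Slc1a5, -3.59 [-3.96 to -3.23] for Slc36a2 and -0.52 [-1.06 to -0.02] for Bcat2. The share of UMIs estimated to be free RNA, from the summed adipocyte list in vessel classes, or the endothelial list in BA nuclei, relative to barcodes with under 200 genes, was 61.5% in ECs and 49.0% in PCs of the untreated library and 72.5% and 76.7% in PCs of the other libraries, against 2.31% to 7.14% in BA nuclei, and for ECs of those libraries the estimate passed 100%. The part of free RNA in the vessel levels was not tested further. When only nuclei with at least 800 UMIs were kept, the count in the denervated library fell from 6 to 0, on 311 EC nuclei.

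Between libraries, 6 of the 8 genes were over 2-fold higher in ECs of the denervated than of the untreated library, where 10.1% of all tested genes were higher, and 3 of 8 were higher than in the sham-operated library, where 11.4% were. The highest log2 ratios against the untreated library were 2.69 [1.48 to 4.07] for Slc7a10, from only 23 and 8 UMIs, 2.63 [2.26 to 3.002] for Slc1a3 and 1.65 [1.48 to 1.82] for Slc36a2. Brown adipocyte markers moved with them: the summed brown list was at 965, 871 and 2738 CPM in ECs of the untreated, sham-operated and denervated library, with all 12 genes above 0, and Cidea alone at 216, 153 and 666 CPM. In the denervated library 1433 of the 2437 EC nuclei formed a cluster with a median of 328 UMIs, in which the adipocyte list summed to 5136 CPM, against 2147 CPM in the 1004 nuclei of the other EC cluster. The top adipocyte cluster of that library had 9403 CPM, so the cluster of 1433 nuclei passed the adipocyte cut-off of the naming rule. It was not named adipocyte-like only because another list also scored too high. The part of mixed adipocyte RNA in the EC ratios was not tested. The untreated library also held a shallow EC cluster, of 1398 of its 4232 EC nuclei, with a median of 349 UMIs. Its adipocyte list was at 3611 CPM, below the cut-off, as the top adipocyte cluster of that library had 9128 CPM. Slc36a2 was at 428 CPM [379 to 483] in this shallow cluster, against 109 CPM in the largest EC cluster. Without both of these clusters, the only EC clusters under a median of 400 UMIs, an alternative added after the data were seen, 1 gene was higher than in the untreated and 0 than in the sham-operated library. In the denervated cluster of 1433 nuclei Slc1a3 had 292 CPM [254 to 335] and Slc36a2 865 CPM [798 to 936], against 43.9 CPM [28.1 to 65.3] and 172 CPM [139 to 210] in the other, so the higher EC levels of these genes lay in the shallower cluster, which also had the higher adipocyte list. Slc7a10 did not differ between them beyond counting error, at 19.6 CPM [10.7 to 32.8] and 16.4 CPM [7.52 to 31.2].

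The genes stood among a longer list of 28 genes of BCAA catabolism. In BA nuclei 27 of them could be compared, and 0 were over 2-fold higher and 0 lower in the denervated than in the untreated library, with a median log2 ratio of -0.03 where all tested genes had 0.02 and 6.03% of them were higher and 1.64% lower. Its highest ratio in that contrast was that of Ppm1k, the phosphatase that activates the dehydrogenase, at 0.65 [0.36 to 0.94]. Its lowest was that of Slc25a44, at -0.51 [-0.66 to -0.37], followed by Dld, the E3 subunit, at -0.34 [-0.51 to -0.17]. Against the sham-operated library 1 was higher and 2 lower, with a median of -0.31, where 13.6% of all tested genes were higher and 8.99% lower, with a median of 0.06. The highest was Hadh, an enzyme of isoleucine breakdown and of fatty acid oxidation, at 1.10 [1.002 to 1.19]. The lowest was Klf15, a transcription factor known to induce BCAA catabolic genes, at -3.55 [-4.22 to -2.95]. Klf15 had 5.49, 56.8 and 4.85 CPM in BA nuclei of the untreated, sham-operated and denervated library, and 5.27, 50.7 and 7.17 CPM in WA nuclei, from 1, 67 and 6 UMIs, so that only the sham-operated library stood apart in either class.

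Between the adipocyte classes, 1 of 27 genes of the BCAA list was over 2-fold higher in WA nuclei in each library, namely Bcat2, and 4, 5 and 9 were lower in the untreated, sham-operated and denervated library, where 10.3%, 8.2% and 8.93% of all tested genes were higher and 30.6%, 15.9% and 25% lower. The median log2 ratios were -0.24, -0.60 and -0.51, those of all tested genes -0.36, -0.27 and -0.37. The remaining parts of the dehydrogenase, named here after their values were seen, were on the brown side with Bckdha. Dbt, the E2 core, was at -1.33 [-2.65 to -0.28], -0.37 [-0.69 to -0.06] and -1.38 [-2.02 to -0.81], and Dld at -2.04 [-3.66 to -0.81], -1.08 [-1.56 to -0.63] and -1.41 [-2.02 to -0.84]. The kinase Bckdk was at -0.16 [-1.49 to 0.89], -0.78 [-1.54 to -0.09] and -1.12 [-1.88 to -0.44]. Of the 4 subunit genes only Bckdhb was higher in WA nuclei in all 3 libraries. Mccc2, a subunit of the carboxylase of leucine breakdown, had the highest ratio of the list after Bcat2 in the untreated library, at 0.99 [0.46 to 1.48], but -0.02 [-0.30 to 0.25] and 0.22 [-0.16 to 0.59] in the others.

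**Figure D5:**
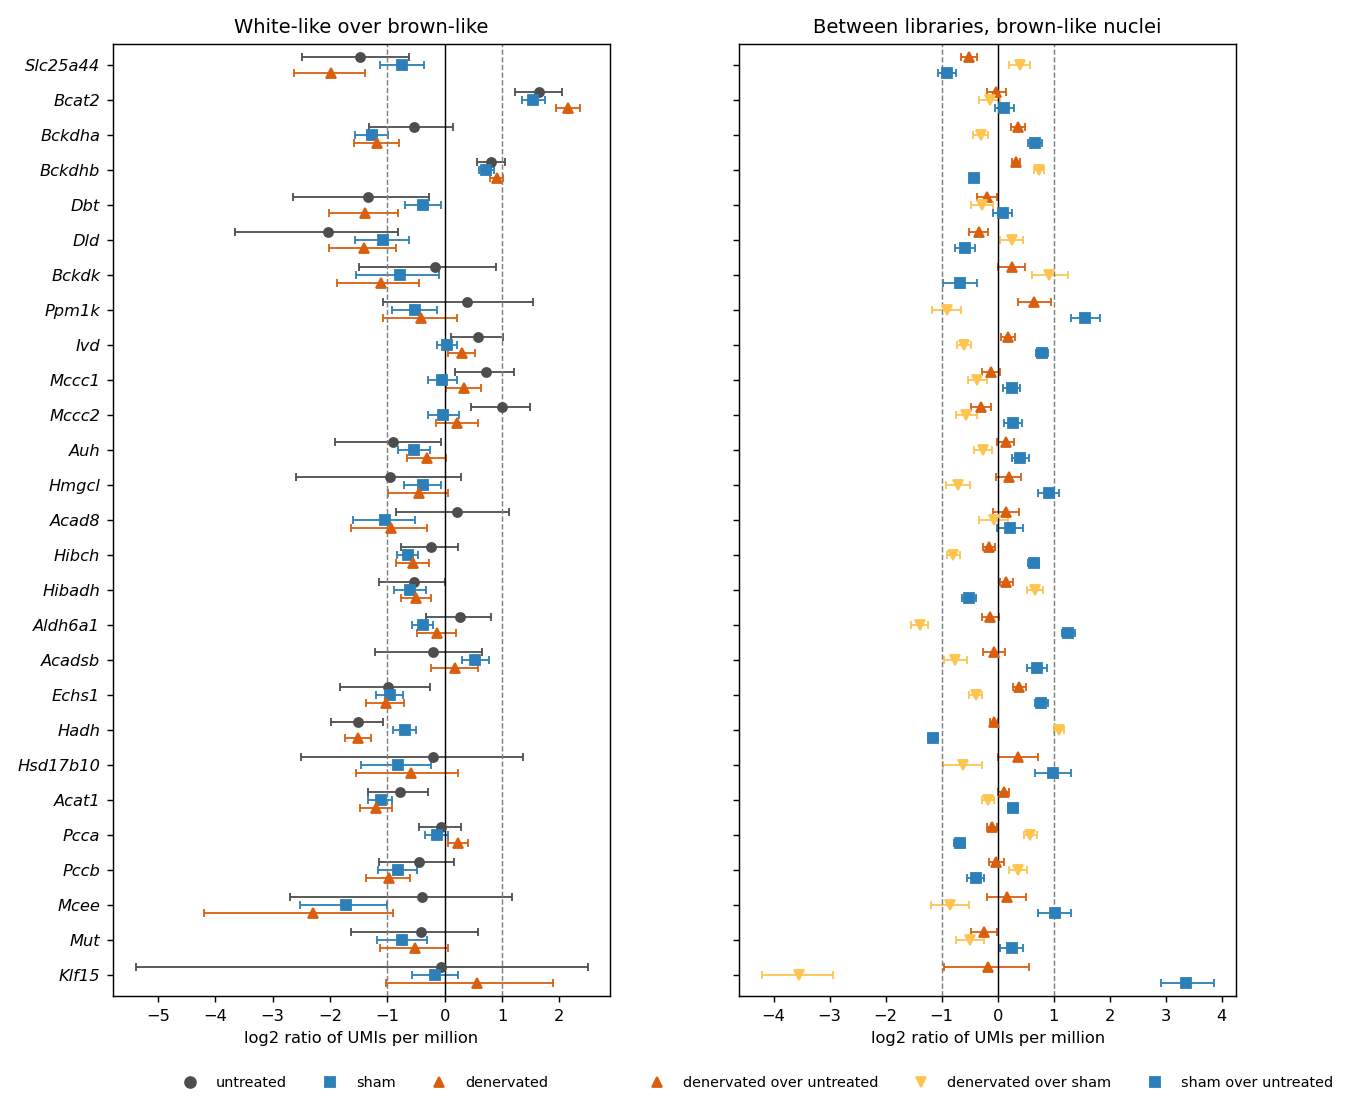
Log2 ratio of CPM for the 27 genes of BCAA catabolism with enough UMIs, in white adipocyte-like over brown adipocyte-like nuclei by library (left) and between libraries in brown adipocyte-like nuclei (right); bars are exact 95% intervals for counting error and dashed lines mark 2-fold. Bcat2 is the only gene beyond 2-fold on the white side in all 3 libraries, and Klf15 reaches 3.37 for sham-operated over untreated.

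Among 32 plasma membrane carriers, 2 of 26 compared genes were higher and 1 lower in denervated than in untreated BA nuclei, and 4 of 21 higher and 4 lower than in sham-operated ones. The shares over all tested genes were 6.03% and 1.64% against the untreated and 13.6% and 8.99% against the sham-operated library. Slc43a3, a nucleobase transporter placed in this list by its family, was lower in both contrasts, at -1.77 [-3.50 to -0.39] and -2.65 [-4.37 to -1.27], but from 29, 30 and 5 UMIs; it had 141, 254 and 75.2 CPM in ECs against 3.46, 6.33 and 1.01 CPM in BA nuclei. Between the adipocyte classes, 5 of 21 carriers were higher and 1 lower in WA nuclei of the untreated library, 3 of 18 higher and 1 lower in the sham-operated and 6 of 18 higher and 3 lower in the denervated one, where 10.3%, 8.2% and 8.93% of all tested genes were higher and 30.6%, 15.9% and 25% lower. The gene counted as lower in the untreated library, Slc1a2, had 0 UMIs in WA nuclei and 5.25 CPM in BA nuclei. In so few WA nuclei 3 UMIs would be 15.8 CPM, so no decrease could be measured for Slc1a2. Slc43a1, a carrier of BCAAs and other large neutral amino acids, had an order like that of Slc7a10. Its WA level was 68.6, 186 and 69.3 CPM and its BA level 2.62, 32.3 and 7.27 CPM, with WA over BA log2 ratios of 4.71 [3.60 to 5.76], 2.53 [2.23 to 2.83] and 3.25 [2.63 to 3.90]. Slc1a2, a glutamate transporter related to Slc1a3, had the highest ratio of denervated over sham-operated BA nuclei, at 2.81 [1.57 to 4.33], from 44 and 6 UMIs. Slc6a6, the taurine transporter, had the lowest WA over BA ratio of the list after Slc36a2 in the untreated library, at -0.42 [-1.05 to 0.15], among genes with a UMI in both classes. Slc1a4, a neutral amino acid carrier of the same family as Slc1a5, had the lowest EC over BA ratio of the untreated library after Slc1a3, at -3.62 [-5.92 to -2.04], and Slc16a10, a carrier of aromatic amino acids, was at -3.30 [-3.62 to -2.996].

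Of 15 measured carriers of mitochondria and lysosomes, 2 of 15 were higher and 0 lower in denervated than in untreated BA nuclei, and 1 of 14 higher and 0 lower than in sham-operated ones, where 6.03% and 13.6% of all tested genes were higher and 1.64% and 8.99% lower. Slc25a13, a mitochondrial carrier that exchanges aspartate for glutamate, was higher in both contrasts, at 1.71 [0.73 to 2.75] and 1.23 [0.17 to 2.39], from 27, 14 and 11 UMIs in the denervated, untreated and sham-operated library. In WA over BA nuclei 0 carriers of this list were higher in any library, while 4 of 10, 1 of 11 and 6 of 12 were lower, Slc25a44 among those of the untreated and denervated libraries; of all tested genes 10.3%, 8.2% and 8.93% were higher and 30.6%, 15.9% and 25% lower. Among the lower ones of the untreated library, Slc15a4 had 0 UMIs in WA nuclei and 26.2 CPM in BA nuclei, under 2-fold above the 15.8 CPM that 3 UMIs would give, and Slc25a15 had 1 UMI, with a log2 ratio of -1.30 [-6.62 to 1.21]. The relative of Slc25a13, Slc25a12, was higher in ECs than in BA nuclei, by 3.48 [2.88 to 4.13], 3.67 [2.86 to 4.59] and 3.06 [2.32 to 3.84]. Among 21 measured genes of glutamate, glutamine, aspartate, serine and glycine metabolism, 0 of 17 passed 2-fold against the untreated library, and 1 was higher and 3 lower against the sham-operated one, beside the same shares of all tested genes. The highest against the latter was Got1, the cytosolic aspartate transaminase, at 1.22 [0.73 to 1.74], and the lowest Phgdh, the first enzyme of serine synthesis, at -1.25 [-2.42 to -0.17], from 11 and 25 UMIs. Between the adipocyte classes, 2 of 16, 4 of 18 and 1 of 16 genes of this list were higher in WA nuclei and 5, 4 and 5 lower, against the shares of all tested genes given for the carriers. Of the 5 lower in the untreated library, Got1, Amt and Aldh18a1 had 0 UMIs in WA nuclei and 21.7, 10.97 and 22.7 CPM in BA nuclei, and Psph and Shmt1 had 1 UMI in WA nuclei and 17.4 and 30.1 CPM in BA nuclei. All 5 BA levels were under 2-fold above the 15.8 CPM of 3 UMIs, so a 2-fold decrease was not measurable for any of them at this depth. Gpt2, the mitochondrial alanine transaminase, was higher in WA than in BA nuclei, at 73.8, 77.2 and 47.8 CPM against 4.41, 9.08 and 5.05 CPM, with log2 ratios of 4.07 [3.06 to 4.99], 3.09 [2.56 to 3.64] and 3.24 [2.49 to 4.03]. Shmt1, an enzyme that interconverts serine and glycine, was on the brown side at -3.13 [-4.36 to -2.13] in the sham-operated and -1.09 [-2.25 to -0.11] in the denervated library, from 8 and 9 UMIs in WA nuclei. When at least 100 UMIs were required, the counts over all listed genes against the untreated library fell from 4 higher and 1 lower to 0 and 0.

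Across the 12 profiles of 4 classes in 3 libraries, the gene most like Slc7a10 in log2(CPM + 10) was Mt2, a metallothionein (Pearson r = 0.991). For Slc1a3 it was Dhtkd1, an enzyme of lysine and tryptophan breakdown (0.981), for Slc1a5 the adipocyte galectin gene Lgals12 (0.985), followed by Acsl1 (0.981), and for Slc36a2 the angiogenic factor gene Vegfa (0.989). Slc25a44 was most like P2ry1 (0.961), Bcat2 most like Lsmem1 (0.981) and Bckdhb most like Sgcd (0.992). Bckdha was most like Slc25a42 (0.976), Etfa (0.973), which passes electrons from the acyl-CoA dehydrogenases to the respiratory chain, and Ppargc1b (0.965), a coactivator of mitochondrial genes that is also in the brown list. These values describe likeness only: the profiles of one library share its depth and its background RNA, and Slc7a10 and Bcat2 both have Fam83a, with 111 UMIs in all, among their 3 most similar genes.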

How the data were processed

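Nuclei were isolated with Nuclei EZ Prep and processed on the BD Rhapsody system, and the authors deposited 1 table of UMI counts per gene and barcode for each library; per the file headers of the untreated and denervated tables, these counts came from the Rhapsody pipeline version 1.9-nuclei on GRCm38 with GENCODE vM19. The labels name GRCh38, which the mouse gene names contradict. For the sham-operated library the file carries no header lines. The submitters' notes list Seurat 4.0.6. The authors' correction for ambient RNA was not repeated. From the counts, barcodes were kept if they had 200 or more genes and if mitochondrial UMIs made up no more than 50% (11792 untreated, 14027 sham and 10462 denervated), and doublets, called where at least 3 UMIs and 25% of the larger of 2 exclusive marker sums co-occurred, were removed (2095, 3172 and 998). Total depth was 14971579, 14725864 and 9420030 UMIs. Each library was clustered alone (2000 variable genes, 30 components, 20 neighbours, Louvain resolution 0.5; scikit-learn 1.9.0, igraph 0.11.9). A cluster was adipocyte-like if its adipocyte list reached 50% of the top cluster's and no other list scored 3 or more, and otherwise took the best list with at least 3 markers of at least 3 UMIs that were 2-fold above the lower quartile of clusters; the nuclei of adipocyte clusters then went through a second round, in which a sub-cluster was white-like with at least 3 such white markers and a white score above the brown score. Every other adipocyte sub-cluster was named brown-like, whatever its brown score. These naming rules were set after the clusters were seen. Levels are UMIs summed per class, per 1000000; ratios carry exact conditional binomial intervals (scipy 1.17.1), and a gene was counted at a 2-fold difference with at least 30 UMIs over both groups. No test was run, since each condition is 1 library, and only counting precision, set by UMI number, is given. Scripts were tested on simulated data. The named genes were the 9 genes, pathway genes that passed 2-fold alike against both other libraries or had the highest or lowest ratio of their list in BA nuclei or, in the untreated library, between classes, and the 3 genes most like each member. The genes and lists were chosen with earlier results of these data known.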

Additional observations from a re-analysis of the deposited data

How the results depend on the processing

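Of 318 alternative values of 28 counts, 294 stayed within 1.5 times of the reported count and 24 did not; 16 counts moved under none of the alternatives run. Shares of nuclei with a UMI moved beyond their interval in 138 of 216 values when thinned to 400 UMIs or not thinned, 176 values of levels in CPM moved and 886 did not, and of the log2 ratios 322 values moved; a change of sign was counted as a reversal for ratios past 2-fold, in 7 values. Ratios under 2-fold kept their sign in 237 of 247 values for BA nuclei between libraries, 116 of 116 for WA over BA, 50 of 59 for EC over BA and 440 of 486 for the others. Among those that turned, denervated over sham reached -1.32 from 0.75 for Slc1a3 and -1.13 from 0.49 for Bckdha in ECs, and 0.32 from -0.49 for Slc7a10 in BA nuclei. The 14 WA over BA ratios past 2-fold kept their sign in 164 of 164 values and 2-fold in 161, and the 4 such ratios between BA classes in 49 and 48 of 49. With a minimum of 500 detected genes, EC counts against the untreated library went from 6 higher and 0 lower to 1 and 1, against the sham library from 3 and 0 to 1 and 1, and the lower count of untreated WA over BA from 1 to 0; EC log2 ratios reversed to -0.27 for Slc1a5 and -0.53 for Bckdha against untreated and -0.25 for Slc7a10 against sham. At Louvain resolution 1, EC counts were 0 higher and 1 lower against untreated and 1 higher against sham, the listed genes lower in denervated than untreated BA nuclei went from 1 to 0, and EC ratios reversed to -0.32 for Slc1a5 and -0.16 for Slc36a2 against untreated and -0.32 for Slc36a2 against sham. Without EC clusters under 400 UMIs (added after the data were seen), EC counts were 1 higher and 1 lower against untreated and 0 and 1 against sham, with Slc36a2 at -0.25 against sham. Keeping doublets gave 6 genes higher in ECs against sham. Clustering the libraries together, or allowing the genes in the clustering, each gave 0 lower in sham WA over BA. With only nuclei of at least 800 UMIs, 0 genes were lower in denervated ECs than in BAs. A minimum of 100 UMIs gave 0 listed genes higher and 0 lower against untreated and 2 higher against sham, in place of 4, 1 and 7. Ambient subtraction gave 0 listed genes lower against untreated; it could not be computed for ECs of the sham and denervated libraries, where the estimated ambient share passed 100%. Summing both adipocyte classes (added later) gave 0 genes lower for denervated over sham, 1 lower for sham over untreated and 0 listed genes lower for denervated over untreated. The cause of these changes was not tested. No paired analysis was possible because each condition has 1 library. In WA nuclei of the untreated library, 132 nuclei limit Slc25a44 and Bckdha to 11 and 17 UMIs.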

Other observations

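In smaller classes that entered none of the comparisons above, UMIs of Slc1a3 were also counted, and as no free RNA share was estimated for these classes, the levels are not read as expression. In the sham-operated library 43 fibroblast-like nuclei had 679 CPM of it [430 to 1018], from 23 UMIs, and 131 Schwann-like nuclei 317 CPM [207 to 464], from 26 UMIs, against 110 CPM in ECs and 61.2 CPM in PCs of the same library. Schwann-like nuclei of the untreated and denervated libraries had 89.1 and 105 CPM, from 4 and 3 UMIs, and the adipocyte list summed to 780, 3217 and 1653 CPM in Schwann-like nuclei of the untreated, sham-operated and denervated library. The 75 fibroblast-like nuclei of the denervated library had 312 CPM [171 to 524], with an adipocyte list of 2274 CPM. Slc1a5 had 1840 CPM [1558 to 2158] in the sham-operated Schwann-like nuclei, against 958 CPM [693 to 1290] in the untreated and 493 CPM [269 to 826] in the denervated ones, and 323 CPM [188 to 518] in the 63 immune-like nuclei of the sham-operated library. The part of free RNA in these levels was not tested. Slc36a2, at 738 CPM [477 to 1089], was also above its EC level in the sham-operated fibroblast-like nuclei, whose adipocyte list summed to 3747 CPM. Slc7a10 had 0 UMIs in immune-like nuclei of the untreated and sham-operated libraries, where 3 UMIs would be 48.7 and 57.0 CPM, and 5 UMIs in denervated fibroblast-like nuclei.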
